A study of Mus musculus with 3 samples.

Results

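Gamma-delta T cells of mouse skin were taken from droplet single-cell RNA sequencing of whole dorsal skin. A barcode was a member when it held at least 1 unique molecular identifier (UMI, a tag that counts a captured mRNA molecule once) of *Trdc*, the constant region of the T cell receptor delta chain, and a UMI of *Cd3d*, *Cd3e* or *Cd3g*, the signalling subunits of the receptor complex. It also held no UMI of *Cd8b1* and under 1% of its UMIs in keratin genes, and it passed the filters of at most 10% mitochondrial UMIs and at least 200 genes. These rules found 480 of 26847 passing cells, which is 1.79%. All mice were female C3H/HeN at 25 weeks of age, and each library pooled the skin of 7 to 8 mice.

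The Neg library came from mice given vehicle and the AA library from mice with alopecia areata (AA), an autoimmune hair loss, induced by transfer of skin-draining lymph node cells expanded in culture. The AA+Ab library came from mice with AA that also received an antibody neutralizing CXCL12, a chemokine. Its dose and schedule were not given in the sources used here. Each group is therefore 1 library, so differences between groups have no replicate check and no p-value, and intervals cover counting error only. Transferred and resident cells carry no label that separates them.

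In mouse epidermis, most resident T cells carry a gamma-delta receptor of nearly fixed sequence built from the V segments *Tcrg-V5* and *Trdv4*. These dendritic epidermal T cells settle in the skin before birth, renew themselves among the keratinocytes, and are known for natural killer type receptors, cytotoxic granules and growth factors that act on epithelium. The dermis holds other gamma-delta T cells that make interleukin 17 and use the V segments *Tcrg-V4* or *Tcrg-V6*.

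The gamma chain V segments are shown because they separate the epidermal from the dermal receptor. *Trdv4* is the delta chain segment of the epidermal receptor. Each line gives the last 120 bases of a segment, 5′ to 3′ on the plus strand of GRCm38 with GENCODE M21 positions, and capitals in *Tcrg-V6* and *Tcrg-V4* mark bases that differ from *Tcrg-V5* in a pairwise alignment. *Tcrg-V5* lies at chr13:19192606-19192725, *Tcrg-V6* at chr13:19190810-19190929, *Tcrg-V4* at chr13:19185387-19185506 and *Trdv4* at chr14:54075396-54075515, all in coding exons of T cell receptor V genes.
Tcrg-V5: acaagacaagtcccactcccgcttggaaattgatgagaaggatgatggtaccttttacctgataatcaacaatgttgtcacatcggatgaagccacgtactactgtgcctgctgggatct
Tcrg-V6: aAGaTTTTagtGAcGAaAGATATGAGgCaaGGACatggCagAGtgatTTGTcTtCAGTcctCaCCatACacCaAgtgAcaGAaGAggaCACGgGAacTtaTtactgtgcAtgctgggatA
Tcrg-V4: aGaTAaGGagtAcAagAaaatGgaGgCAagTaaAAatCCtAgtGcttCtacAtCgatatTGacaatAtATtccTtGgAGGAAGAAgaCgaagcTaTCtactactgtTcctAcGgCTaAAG
Trdv4: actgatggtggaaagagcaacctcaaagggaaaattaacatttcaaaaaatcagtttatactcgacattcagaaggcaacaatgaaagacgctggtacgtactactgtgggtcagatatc
Over the aligned coding sequence, *Tcrg-V6* shared 58.2% of its bases with *Tcrg-V5* and *Tcrg-V4* shared 64.8%. The libraries were primed at the 3′ end of each mRNA, and the V segment is the part of the receptor mRNA far from that end, so a cell without a V segment UMI may still use it.

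The label was checked against markers that the rule did not use, although *Trdv4* lies in the same delta chain mRNA as *Trdc*. *Trdv4* had a UMI in 107 of 154 Neg cells, 71 of 113 AA cells and 142 of 213 AA+Ab cells, together 320 of 480 or 66.7%. *Tcrg-V5* had one in 36, 21 and 47 cells, together 104 of 480 or 21.7%. Keratinocytes of the same libraries, taken as cells with at least 1% keratin UMIs and no UMI of *Cd3d*, *Cd3e*, *Cd3g* or the leukocyte gene *Ptprc*, held *Trdv4* at no more than 0.0519 CPM (the UMIs of a gene per 1000000 UMIs in the cells considered) and the members at 251 to 269 CPM. Either segment was found in 337 cells, 70.2% of the members. *Trdv4* alone does not give the epidermal name, since the gamma chain segments are those that separate the receptors. It had a UMI in 18 of 51 cells of sub-cluster 3, described below, where *Tcrg-V5* had one in 2. The epidermal name therefore rests on the 104 cells with *Tcrg-V5* and was not shown for the others. *Itgae*, the integrin chain that binds E-cadherin on keratinocytes, had 427, 423 and 439 CPM in Neg, AA and AA+Ab.

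*Trdc* itself had a median of 13.5, 9 and 12 UMIs per member in Neg, AA and AA+Ab. Members with a single *Trdc* UMI, just inside the rule, numbered 9, 9 and 8, and in the same order 6, 3 and 5 members had 0.5 to 1% keratin UMIs. Cells that met every other condition with 1 to 2% keratin UMIs, just outside, numbered 28, 6 and 17. Of the keratinocytes, 1.25%, 0.628% and 0.834% held a *Trdc* UMI, at median depths of 12834, 11216 and 11206.5 UMIs per cell. The median depth of members was 5042.5, 4479 and 4506 UMIs, and their UMIs summed to 1104201, 605453 and 1305968. No member barcode was shared between libraries, although 17 to 28 barcodes of all passing cells were shared by a pair of libraries.

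Transcripts of alpha and beta chain genes and of markers of other cells were present in the members. *Trac*, the alpha chain constant region, had a UMI in 8, 14 and 19 members of Neg, AA and AA+Ab. The beta chain regions were far more frequent, with *Trbc1* in 103, 76 and 130 members and *Trbc2* in 112, 81 and 151. Only 21, 14 and 26 members held none of these. Whether the beta chain UMIs came from the members themselves or from other cells was not tested. The keratinocyte list had all 10 genes detected in each library and summed to 2359, 1726 and 1793 CPM, against 17425 to 18747 CPM in the keratinocytes. The Langerhans cell list summed to 1096, 173 and 132 CPM, with *Cd207* at 0 in AA and *H2-M2* at 0 in AA and AA+Ab, and 1 Neg cell held 438 of its 1210 UMIs. The ratios between libraries were also computed without members that held alpha or beta chain UMIs, and without members that held at least 5 UMIs of another cell type's markers.

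A graph clustering of the members gave 7 sub-clusters, numbered 0 to 6. Sub-clusters 1 and 6, with 29 and 12 cells, had median depths of 26870 and 12266 UMIs against 4673 for all members, and were led by hair follicle and keratinocyte genes such as *Lef1*, *Wif1* and *Krt25* in the first and *Fst*, *Sox9* and *Sostdc1* in the other. Those 41 cells held 905519 of the members' 3015622 UMIs, or 30.0%, with 29.4%, 22.2% and 34.2% in Neg, AA and AA+Ab. They held 9.44% of the *Trdc* UMIs. Summed levels are therefore given for all members, and where stated for the 439 others, named here the low-depth members, that is 141, 107 and 191 cells.

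The share of gamma-delta T cells was lowest in AA. They made up 154 of 6582 passing cells in Neg, or 2.34% (95% Clopper-Pearson interval 1.99 to 2.73), 113 of 10433 in AA, or 1.08% (0.893 to 1.30), and 213 of 9832 in AA+Ab, or 2.17% (1.89 to 2.47). The AA interval did not overlap the others, and the Neg and AA+Ab intervals did. The share in AA was 0.463 times that in Neg, and the share in AA+Ab was 2 times that in AA and 0.926 times that in Neg.

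The other T cells stood in another order. Alpha-beta T cells were defined by a *Cd3* UMI, a *Trac*, *Trbc1* or *Trbc2* UMI and neither *Trdc* nor *Cd8b1*. They made up 0.988%, 1.67% and 1.46% of passing cells in Neg, AA and AA+Ab. A beta chain UMI is enough for this rule, so a gamma-delta T cell whose *Trdc* was not captured could be among them. T cells with *Cd8b1*, the CD8 beta chain of cytotoxic T cells, and no *Trdc* made up 0.137%, 1.21% and 0.387%. Among all 3 kinds together, gamma-delta T cells were 67.5% in Neg, 27.4% in AA and 53.9% in AA+Ab, so that this share also depends on the *Cd8b1* T cells. Each library is 1 pool of skin, and differences between pools in dissociation or capture cannot be told apart from the groups.

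**Figure D1:**
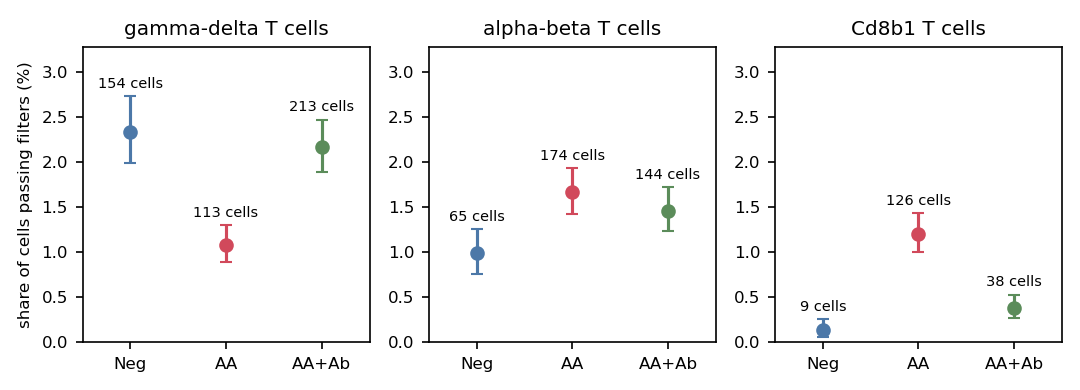
Share of cells passing the filters (y axis, percent) that were gamma-delta, alpha-beta or Cd8b1 T cells in each library (x axis), with 95% Clopper-Pearson intervals as bars. The gamma-delta share was 2.34%, 1.08% and 2.17% in Neg, AA and AA+Ab, and the Cd8b1 share was highest in AA at 1.21%.

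What set the gamma-delta T cells apart from the alpha-beta T cells was tested over the 3 libraries, on UMIs summed per library and cell type with the library as a block (480 against 383 cells). By edgeR's quasi-likelihood test with Benjamini-Hochberg adjustment at 0.05, 882 of 9034 tested genes were higher in gamma-delta T cells, which is 9.76%, and 513 were lower, which is 5.68%. Without the AA+Ab library the counts fell to 437 higher and 196 lower. The median log2 fold change over all tested genes was -0.04. The genes that define either cell type were left out of the test. Alpha-beta T cells of Neg had a median depth of 5849 UMIs and a mean of 13626.6. The medians and means were 3428 and 5220.2 in AA and 4208 and 6625.6 in AA+Ab. Without cells holding at least 5 UMIs of another cell type's markers, 49 of the 65 Neg cells stayed, with 405597 of 885726 UMIs. In AA 621441 of 908313 UMIs stayed, and in AA+Ab 513383 of 954092. The alpha-beta CPM values below include these cells.

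Receptor genes were higher in gamma-delta T cells. *Tcrg-C1*, a gamma chain constant region, had 434, 314 and 449 CPM in gamma-delta T cells of Neg, AA and AA+Ab and 3.39, 9.91 and 3.14 CPM in alpha-beta T cells, a log2 fold change of 6.10 ± 0.40 (SE, adjusted p = 0.000269 by edgeR). *Trdv4* had 262, 269 and 251 CPM against 7.90, 3.30 and 6.29, a log2 fold change of 5.41 ± 0.30 (adjusted p = 0.000209 by edgeR). *Trdv4* and *Trdc* lie in the same delta chain mRNA, and the rules set *Trdc*, so this test is no separate support. *Tcrg-V5* had 122 UMIs against 1, with 38.0, 39.6 and 42.9 CPM in gamma-delta T cells. All 3 genes were higher in gamma-delta T cells in each library, as were all 882 genes called higher. Gamma constant regions resemble each other in sequence, so the split of reads among *Tcrg-C1*, *Tcrg-C2* and *Tcrg-C4*, all called higher, is uncertain. Of 6 tested T cell receptor genes, 5, with *Trdv4* among them, were higher and 0 lower by edgeR. The counts were the same at an unadjusted p under 0.05 and by DESeq2, and the median log2 fold change was 4.27.

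Receptors shared with natural killer cells were tested as a list. Of 18 tested genes, 8 were higher, 1, *Klrg1*, was lower and 9 were not called, with a median log2 fold change of 1.48. *Fcer1g*, an adaptor that links activating receptors to kinases, had 1051, 813 and 1013 CPM against 36.1, 91.4 and 27.3 in alpha-beta T cells, a log2 fold change of 4.30 ± 0.40 (adjusted p = 0.000767 by edgeR). *Klrb1b*, an inhibitory lectin receptor, had 230, 249 and 276 CPM against 9.03, 6.61 and 4.19. *Cd7*, a surface molecule of T and natural killer cells, had 1234, 1138 and 1479 CPM against 26.0, 98.0 and 46.1. In every library the gamma-delta value of these genes was the higher. *Klrd1*, the partner chain of the NKG2 receptors, was also called higher, with a log2 fold change of 3.11 ± 0.42. *Klrk1*, which encodes NKG2D, had 176, 200 and 219 CPM against 39.5, 180 and 59.7, and its adjusted p of 0.0576 by edgeR missed the threshold.

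Cytotoxic granule genes followed. Of 11 tested genes, 6 were higher and 1, the chemokine gene *Ccl5*, was lower, with a median log2 fold change of 1.87. *Prf1*, which encodes the pore-forming protein perforin, had 366, 401 and 414 CPM against 9.03, 29.7 and 16.8 in alpha-beta T cells, a log2 fold change of 4.42 ± 0.32 (adjusted p = 0.000324 by edgeR). *Nkg7*, a granule membrane protein, had 1159, 1344 and 1439 CPM against 64.4, 547 and 207, with an adjusted p of 0.0114 by edgeR that became 0.0678 without the AA+Ab library. *Gzmb*, which encodes granzyme B, stood at 19.0, 4.96 and 8.42 CPM in gamma-delta T cells, against 14.7, 141 and 40.9, and was not called (adjusted p = 0.109 by edgeR).

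Cytokine genes and receptors for cytokines were more often lower. Of 16 effector cytokine genes, 1, *Il17a*, was higher and 5 were lower, and of 24 cytokine receptor and signalling genes, 2 were higher and 9 lower. *Ifng*, the gene of interferon gamma, had 3.62, 14.9 and 3.83 CPM against 20.3, 313 and 69.2, a log2 fold change of -3.97 ± 0.38 (adjusted p = 0.000827 by edgeR). *Il12rb2*, the signalling chain of the interleukin 12 receptor, went the other way with 428, 803 and 493 CPM against 30.5, 59.5 and 31.4, a log2 fold change of 3.79 ± 0.20 (adjusted p = 0.000176 by edgeR). Its downstream factor *Stat4* was lower, with a log2 fold change of -2.70 ± 0.33. The lower genes also included *Il7r*, *Il2ra* and *Il18r1*, receptors for survival and inflammatory cytokines.

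Genes of costimulation were more often lower than higher. Of 11 checkpoint and costimulation genes, 6 were lower and 1, *Tox*, was higher. *Ctla4*, an inhibitory receptor, had 5.43, 1.65 and 6.13 CPM against 148, 297 and 216, a log2 fold change of -5.44 ± 0.37 (adjusted p = 0.000283 by edgeR). *Cd28*, the costimulatory receptor of conventional T cells, had 15.4, 8.26 and 19.1 CPM against 182, 446 and 439. Of 17 residency and homing genes, 5 were lower (*Cxcr4*, *S1pr1*, *Klf2*, *Ccr8* and *Ccr7*), 2 were higher (*Rgs1* and *Itgb7*) and 10 were not called. *S1pr1*, the receptor that guides T cells out of tissue into lymph and blood, had 3 UMIs in all members, all of them in AA+Ab, against 118 in alpha-beta T cells. Its activator *Klf2* was lower in each library, with a log2 fold change of -3.55 ± 0.56, and its adjusted p reached 0.0508 by edgeR without the AA+Ab library.

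Among 24 tested transcription factors, 6 were higher and 6 lower. *Ahr*, a ligand-activated factor that epidermal T cells need for survival, had 380, 350 and 339 CPM against 85.8, 109 and 65.0, a log2 fold change of 2.02 ± 0.20 (adjusted p = 0.000955 by edgeR). *Rora* and *Gata3*, factors of type 17 and type 2 cells, were among the lower genes, with *Rora* at 222, 302 and 163 CPM against 460, 1353 and 961. *Itgae* was not called, at 427, 423 and 439 CPM against 53.1, 356 and 115 (log2 fold change 1.63 ± 0.47, adjusted p = 0.0582 by edgeR). Of 20 dissociation stress genes, edgeR called 0, with 7 lower at an unadjusted p under 0.05 and 1 lower by DESeq2. Not called either was *Ripk1*, the kinase of the study's main question, with 32.6, 64.4 and 59.0 CPM against 31.6, 57.3 and 26.2 (log2 fold change 0.42 ± 0.27).

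**Figure D2:**
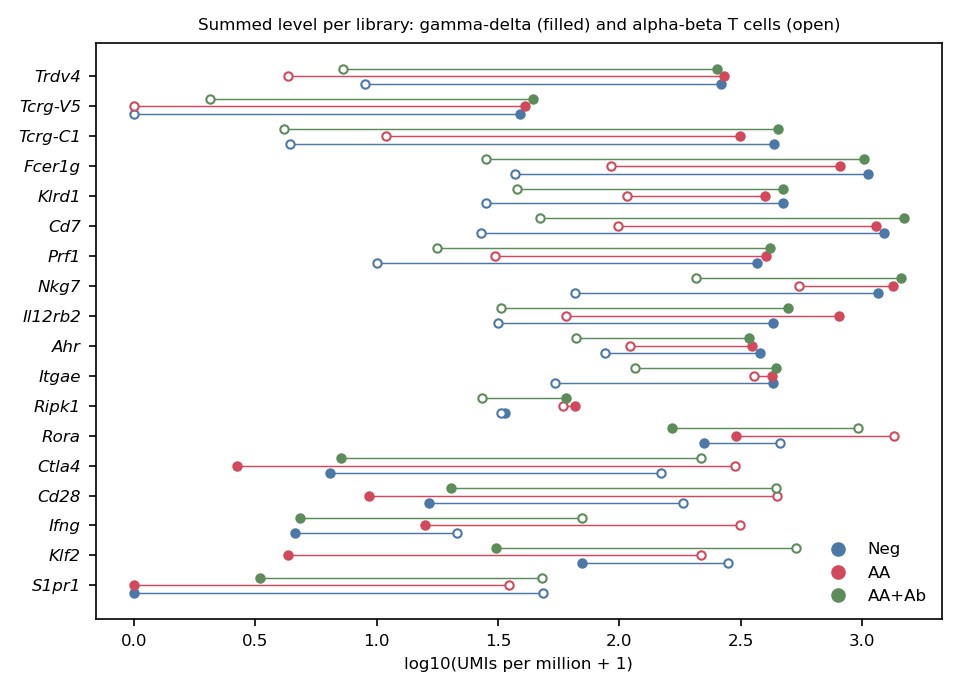
Summed level of 18 genes (y axis) as log10 of CPM plus 1 (x axis) in gamma-delta T cells (filled points) and alpha-beta T cells (open points), joined by a line for each library. Filled points lie right of open points for the receptor, natural killer and granule genes and left of them for Rora, Ctla4, Cd28, Ifng, Klf2 and S1pr1, while Ripk1 points lie close together.

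Several genes with the largest log2 fold changes in this test had no UMI in alpha-beta T cells. *Orm3*, an acute phase glycoprotein gene, had 26, 19 and 46 UMIs in gamma-delta T cells and 0 in alpha-beta T cells, and was at least 27.6-fold higher when the latter were set to a floor of 3 UMIs over the group. At the other end, *Slamf6*, a receptor of conventional lymphocytes, had 0 UMIs in gamma-delta T cells and 16, 35 and 43 in alpha-beta T cells, at least 34.4-fold lower. *Cd6* and *Cd5*, which tune receptor signals in alpha-beta T cells, had 2 and 4 UMIs in gamma-delta T cells against 263 and 259. *Il5*, the eosinophil growth factor, had 0 UMIs against 50.

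Against *Cd8b1* T cells the comparison rests on 9 cells in Neg, 126 in AA and 38 in AA+Ab. By the same edgeR test, 620 of 7730 genes were higher in gamma-delta T cells, which is 8.02%, and 604 were lower, which is 7.81%, around a median log2 fold change of 0.02. Counts fell to 304 higher and 248 lower without AA. They were 702 and 802 without Neg and 425 and 290 without AA+Ab.

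Interferon response genes were more often lower than higher. Of 19 tested, 13 were lower in gamma-delta than in *Cd8b1* T cells by edgeR and 1, *Bst2*, was higher, with a median log2 fold change of -1.82. DESeq2 called 9 lower and 0 higher. *B2m*, *Tap1*, *Psmb8* and *Psmb9*, which act in antigen presentation, were among the genes lower by edgeR. Of 17 residency and homing genes, 10 were lower and 0 higher by edgeR (1 higher at an unadjusted p under 0.05, 0 by DESeq2), the lower ones including the chemokine receptor genes *Cxcr3* and *Cxcr6*. *Cxcr6* had 200, 306 and 246 CPM against 213, 844 and 462, and lost its call without AA or without AA+Ab.

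Of 15 effector cytokine genes tested against *Cd8b1* T cells, 8 were lower, 2 (*Il17a* and *Tnfsf8*) were higher and 5 were not called. *Ccl4*, a chemokine gene, had 19.0, 11.6 and 17.6 CPM in gamma-delta T cells against 512, 1367 and 1283 in *Cd8b1* T cells, a log2 fold change of -6.12 ± 0.35 (adjusted p = 2.59e-09 by edgeR). *Ifng* had 3.62, 14.9 and 3.83 CPM against 192, 534 and 631, a log2 fold change of -6.29 ± 0.40 (adjusted p = 8.73e-09 by edgeR). *Gzmb* was lower too, with a log2 fold change of -4.23 ± 0.44. *Prf1*, with 366, 401 and 414 CPM against 42.7, 48.1 and 90.8, was higher, with a log2 fold change of 2.51 ± 0.29 (adjusted p = 7.12e-06 by edgeR). The cytotoxic list as a whole had 2 of 12 genes higher and 5 lower. *Nkg7* was not called, with a log2 fold change of 0.13 ± 0.21.

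Natural killer receptors were split, with 5 of 16 tested genes higher and 7 lower. *Fcer1g* had 0, 8 and 10 UMIs in *Cd8b1* T cells against 1161, 492 and 1323 in gamma-delta T cells. *Klrk1* was lower, with 176, 200 and 219 CPM against 235, 390 and 375, and lost its call without AA or without AA+Ab. *Klrb1b* had no UMI in *Cd8b1* T cells and 254, 151 and 361 in gamma-delta T cells, and was at least 82.6-fold higher. The killer cell immunoglobulin-like receptor genes *Kir3dl1* and *Kir3dl2*, near copies between which reads may be divided, also had none, and were at least 40.3-fold and 59.2-fold higher.

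The widest gap in this test was that of *Zmat4*, a zinc finger gene, with 611, 443 and 634 UMIs in gamma-delta T cells of Neg, AA and AA+Ab and 0 in *Cd8b1* T cells. It was at least 182-fold higher. *Col27a1*, a collagen gene, followed with 454, 248 and 530 UMIs against 0, at least 133-fold higher. Per library, *Zmat4* stood at 553, 732 and 486 CPM and *Col27a1* at 411, 410 and 406 CPM in gamma-delta T cells.

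Genes of interleukin 17 producing cells were found in a small set of members. A UMI of *Il23r*, *Blk*, *Ccr6*, *Il17a* or *Il17f* was present in 13 of 154 Neg cells (8.44%), 14 of 113 AA cells (12.4%) and 17 of 213 AA+Ab cells (7.98%), with intervals that overlap. Among the 104 cells with *Tcrg-V5*, 5 held such a UMI, and among the 376 without it, 39. With each cell thinned to 1000 UMIs the shares were 3.92%, 9.74% and 4.31%.

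These UMIs lay mostly in sub-cluster 3, which held 51 cells. Its genes were used to form it, so the values describe it and test nothing. *Il23r*, the interleukin 23 receptor, had a UMI in 25 of the 51 cells and in 3 of the 388 cells of sub-clusters 0, 2, 4 and 5. *Blk*, a kinase of this lineage, was found in 24 against 0 cells, and *Ccr6*, a chemokine receptor, in 14 against 2. *Maf*, a factor of dermal gamma-delta T cells, was found in 30 against 18. Of the 9 epidermal list genes, 8 were found in a smaller share of sub-cluster 3, with *Tcrg-V5* in 2 against 97 cells, *Fcer1g* in 17 against 349 and *Nkg7* in 19 against 364. The exception was *Cd69*, an activation and residency marker, in 33 against 113 cells. *Cd163l1*, though a marker of interleukin 17 producing cells in the list, was found in 24 of the 51 and 160 of the 388 cells.

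The sub-cluster was led by *Ccl5*, *Tyrobp*, *Arhgap15*, *Cd74* and *Ms4a4b*, genes that other immune cells also use, and it is not given a cell type name. *Il17a* was uneven among cells. It had 21, 82 and 39 UMIs in Neg, AA and AA+Ab, found in 4, 3 and 4 cells, and a single AA cell held 77 of the 82. The higher AA sum of *Il17a* is therefore a value of 1 cell. *Tcrg-V4* and *Tcrg-V6*, the dermal V segments, had 9 UMIs each over all members.

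**Figure D3:**
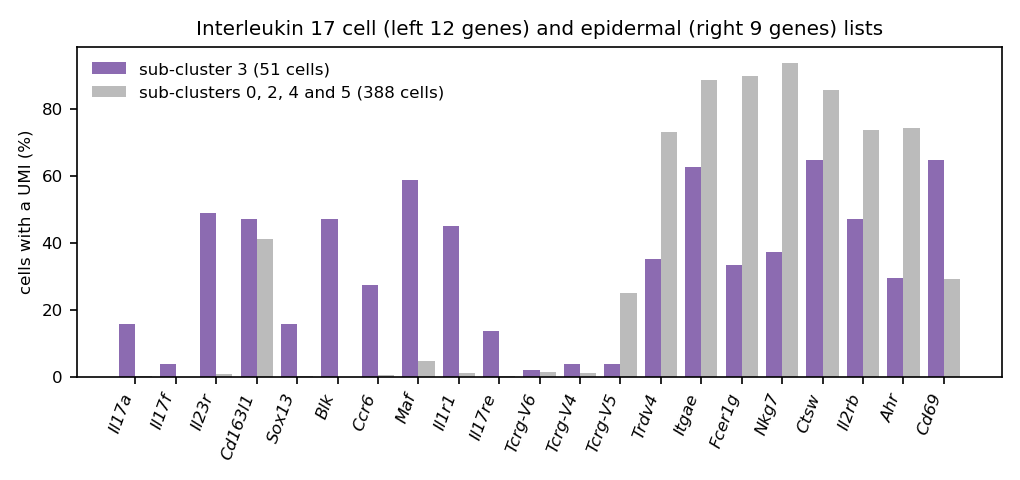
Percent of cells with a UMI (y axis, from 0) of each gene of the interleukin 17 cell and epidermal lists (x axis) in sub-cluster 3 (51 cells) and in sub-clusters 0, 2, 4 and 5 (388 cells). Blk was found in 47.1% of sub-cluster 3 and in none of the others, and Nkg7 in 37.3% against 93.8%.

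Between the libraries, the gamma-delta T cells were compared gene by gene as ratios of CPM. Genes with 20 or more UMIs over both libraries were compared, and a gene counted as past the fold at a ratio of at least 2 or at most 0.5. From Neg to AA, 196 of 8567 genes were past the fold upward, which is 2.29%, and 512 downward, which is 5.98%, with a median log2 ratio of -0.02. The 3 comparisons share libraries and are not independent of each other. A gene high in AA is thus counted against both of the other libraries. The make-up of the members also differed. Sub-cluster 0 held 11.7%, 28.3% and 11.7% of the members of Neg, AA and AA+Ab, and sub-cluster 2 held 35.7%, 15.9% and 33.8%. In summed counts, a change of level within cells cannot be told apart from such a change in make-up.

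The genes of cell identity were within the 2-fold limit between libraries, for the 9 epidermal list genes and for *Trdc*, *Trdv4*, *Cd3e* and *Cd3g*. The epidermal list sum had a log2 ratio of AA to Neg of 0.00 (-0.07 to 0.07). The summed level of the other 4 was lower in AA, with a log2 ratio of -0.15 (-0.20 to -0.10). The rule used all of these 4 but *Trdv4*. *Trdv4* had a log2 ratio of AA to Neg of 0.04 (95% interval -0.25 to 0.32), *Itgae* of -0.01 (-0.24 to 0.21) and *Prf1* of 0.13 (-0.10 to 0.37). *Rgs1*, a brake on chemokine signalling in resident T cells, had 1860, 2040 and 1853 CPM in Neg, AA and AA+Ab. Of 16 natural killer receptor genes compared between AA and Neg, none was past the fold upward and 1, *Tyrobp*, downward, with a median log2 ratio of -0.04. Both counts are near the shares over all genes, 2.29% upward and 5.98% downward. *Tyrobp* was a leading gene of sub-cluster 3, with 106 UMIs there and a far lower level in the other members. Its ratio is therefore not one of the members at large. *Fcer1g* had 1051, 813 and 1013 CPM, lowest in AA, within the 2-fold limit.

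Transcription factors were compared as a list. Of 23 compared between AA and Neg, 16 had a ratio above 1 and 7 below, 3 were past the fold upward (*Lef1*, *Nr4a3* and *Tbx21*) and none downward, with a median log2 ratio of 0.38. *Nr4a3*, a nuclear receptor gene induced by T cell receptor signals, had 215 CPM in Neg, 472 in AA and 191 in AA+Ab, a log2 ratio of AA to Neg of 1.14 (0.88 to 1.39). *Nr4a1*, of the same family, had 155, 243 and 91.1 CPM, and *Nr4a2* had 180, 314 and 208. All 3 were highest in AA, although in the 21, 14 and 26 members without alpha or beta chain UMIs the log2 ratio of *Nr4a1* was -1.55. *Tbx21*, the type 1 master factor, had 29.0, 66.1 and 30.6 CPM, a log2 ratio of 1.19 (0.48 to 1.91), from 32, 40 and 40 UMIs. *Lef1* belongs to the leading genes of sub-cluster 1, which held most of its UMIs with sub-cluster 6 (394 of 409).

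The keratinocytes of the same libraries moved in the same order for part of these genes. Their *Nr4a1* was 455, 603 and 298 CPM, above the members' level, and their *Nr4a3* was 29.2, 42.4 and 15.8 CPM, below it. Their *Tbx21* was at most 0.446 CPM. The list of 20 genes induced by tissue dissociation had a median log2 ratio of AA to Neg of 0.14 over all members, with none past the fold, and of 0.41 in the low-depth members. Its part in these differences was not tested.

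Of 19 interferon response genes compared between AA and Neg, none was past the fold upward and 1, *Ifi27l2a*, downward. These counts are near the shares over all genes, 2.29% upward and 5.98% downward. A single Neg cell held 45 of the 50 Neg UMIs of *Ifi27l2a*. The median log2 ratio was 0.10, and the list sum had a log2 ratio of 0.21 (0.09 to 0.33). *B2m*, the light chain of class I molecules, had 480, 727 and 442 CPM in the members. Its log2 ratio of 0.60 (0.41 to 0.78) was within the 2-fold limit.

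Of 6 checkpoint and costimulation genes compared between AA and Neg, 2 (*Cd101* and *Tnfrsf9*) were past the fold upward and none downward, with a median log2 ratio of 0.64. *Tnfrsf9*, the costimulatory receptor 4-1BB, had 40.8 CPM in Neg, 92.5 in AA and 39.1 in AA+Ab, with a log2 ratio of AA to Neg of 1.18 (0.59 to 1.78) and at most 0.867 CPM in keratinocytes. With each cell thinned to 1000 UMIs, the log2 ratio of *Tnfrsf9* in AA+Ab to AA was 0.030, so AA was not above AA+Ab in that setting. *Il12rb2* had 428, 803 and 493 CPM, a log2 ratio of 0.91 (0.72 to 1.09), where keratinocytes had 52.4, 33.5 and 27.8. *Stat3* had 275, 416 and 242 CPM. Of 25 cytokine receptor and signalling genes compared, 1, *Il21r*, was past the fold upward and none downward, with a median log2 ratio of 0.22.

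*Areg*, the gene of the epithelial growth factor amphiregulin, had 89.7 CPM in Neg, 243 in AA and 117 in AA+Ab, a log2 ratio of AA to Neg of 1.44 (1.06 to 1.82). A single AA cell held 69 of its 147 UMIs, and a UMI of it was found in 20 of 154, 19 of 113 and 38 of 213 cells. *Areg* was also a leading gene of sub-cluster 0, with 524 CPM there against 78.8 in the other members. *Tnf*, the gene of tumour necrosis factor, had 62.5, 104 and 88.1 CPM. *Il13*, the type 2 cytokine gene, had 18.1, 67.7 and 11.5 CPM, with 26 of 41 AA UMIs in 1 cell. With each cell thinned to 1000 UMIs, the log2 ratio of *Il13* turned to -0.79.

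Other genes were lower in AA than in Neg. *Xcl1*, a chemokine gene that attracts cross-presenting dendritic cells, had 379 CPM in Neg, 226 in AA and 130 in AA+Ab, with a log2 ratio of AA to Neg of -0.74 (-1.03 to -0.46). In alpha-beta T cells it ran 86.9, 530 and 133 CPM. *Klf2* had 76, 2 and 39 UMIs, that is 68.8, 3.30 and 29.9 CPM, a log2 ratio of -4.38 (-7.45 to -2.48), and 1 Neg cell held 31 of the 76. *Ctsc*, the protease that activates granzymes, had 207, 127 and 208 CPM, a log2 ratio of -0.71 (-1.10 to -0.33).

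**Figure D4:**
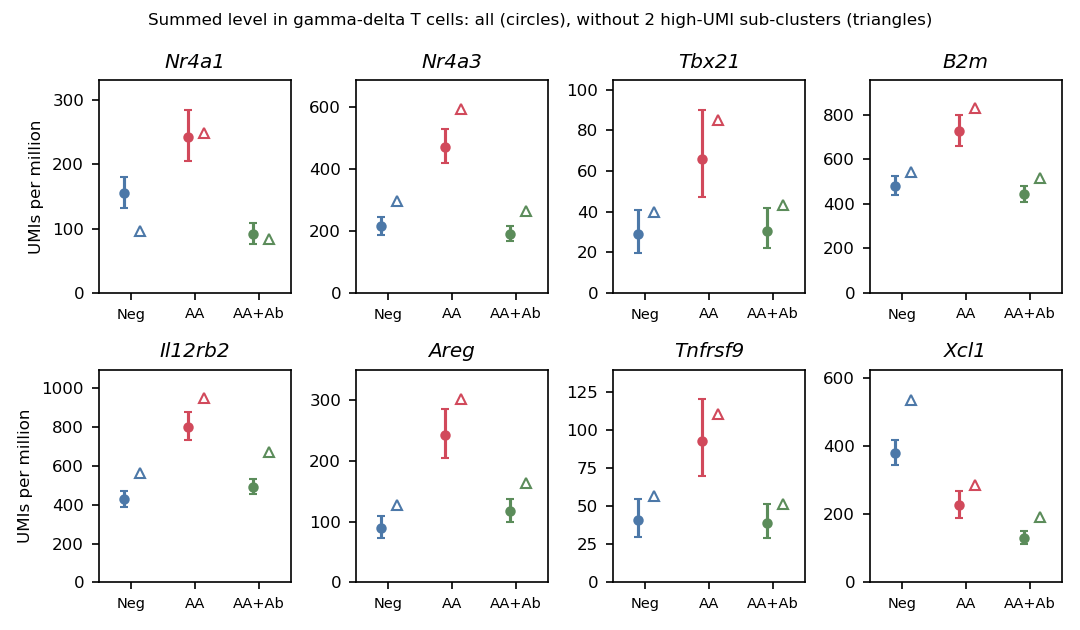
Summed level (y axis, CPM from 0) of 8 genes in gamma-delta T cells of each library (x axis), for all members (circles, with 95% Poisson intervals) and for members outside the 2 sub-clusters of high UMI counts (triangles). All genes but Xcl1 were highest in AA in both sets, and Xcl1 was lower in AA and lowest in AA+Ab.

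When both libraries had to hold 3 UMIs or more of a gene, the 8 smallest ratios of AA to Neg included those of 4 class II antigen presentation genes, *H2-Aa*, *H2-Eb1*, *H2-Ab1* and *Cd74*. *Cd74* had 642 UMIs in Neg, 29 in AA and 18 in AA+Ab, and a single Neg cell held 243 of them. *H2-Aa* had 217, 9 and 2 UMIs, with 98 in 1 Neg cell. Without members that held at least 5 UMIs of another cell type's markers, the log2 ratio of *H2-Aa* turned from -3.73 to 0.17 and that of *H2-Ab1* from -2.64 to 0.91. Among the 8 largest ratios, *Gpr183*, a receptor for oxysterols, had 16, 47 and 61 UMIs in 8, 16 and 17 cells, a log2 ratio of AA to Neg of 2.42 (1.58 to 3.34). *Tnfsf14*, the gene of the costimulatory ligand LIGHT, had 4, 18 and 2 UMIs in 3, 8 and 2 cells.

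From AA to AA+Ab, 600 of 8872 genes were past the fold upward, which is 6.76%, and 273 downward, which is 3.08%, with a median log2 ratio of 0.06. The genes described above as highest in AA stood lower in AA+Ab, and since both comparisons use the AA library this is not a separate observation. Of 22 transcription factors compared, none was past the fold upward and 4 were downward (*Nr4a1*, *Nr4a3*, *Tbx21* and *Irf4*), with a median log2 ratio of -0.49. *Nr4a3* had a log2 ratio of AA+Ab to AA of -1.30 (-1.55 to -1.05). *Nr4a1* had one of -1.41 (-1.77 to -1.05).

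The medians of the cytokine receptor and interferon lists were both below 0. Of 25 cytokine receptor and signalling genes, 6 were past the fold downward (*Il1r1*, *Stat4*, *Il2ra*, *Il21r*, *Cish* and *Stat5a*) and none upward, with a median of -0.62 and 6 genes above 0. Of 16 interferon response genes, 2 were downward (*Irf1* and *Igtp*) and none upward, with a median of -0.64 and 4 genes above 0. *Irf1*, a factor induced by interferon gamma, had 43.5, 66.1 and 19.9 CPM in Neg, AA and AA+Ab, whereas keratinocytes had 44.0, 83.0 and 90.4. *Il1r1*, the interleukin 1 receptor, had 47.1, 61.1 and 23.0 CPM. The dissociation stress list had 2 of 20 genes downward and none upward, with a median of -0.29, and its part in these differences was not tested.

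*Klrb1f*, an activating lectin receptor gene, was past the fold upward, with 42.6, 26.4 and 66.6 CPM in Neg, AA and AA+Ab and a log2 ratio of AA+Ab to AA of 1.33 (0.55 to 2.20). It was found in 39, 16 and 61 cells, with at most 5 UMIs in 1 cell. *Ctsc* stood at the same level in AA+Ab as in Neg, with a log2 ratio of 0.00 (-0.26 to 0.26). *Klf2* remained below Neg in AA+Ab, with a log2 ratio of -1.21 (-1.80 to -0.63).

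Under the same minimum, the 8 largest ratios of AA+Ab to AA included those of the muscle genes *Pvalb*, *Mylpf*, *Myl1*, *Tnnt3*, *Tnni2*, *Ckm* and *Acta1*. *Mylpf*, a myosin light chain, had 72, 14 and 552 UMIs in Neg, AA and AA+Ab, and a single AA+Ab cell held 534 of them. *Acta1* likewise had 769 of its AA+Ab UMIs in 1 cell. These ratios rest on 1 cell for each gene.

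From Neg to AA+Ab, 295 of 9587 genes were past the fold upward, which is 3.08%, and 310 downward, which is 3.23%, with a median log2 ratio of 0.03. No transcription factor of 23 compared was past the fold in either direction, with 17 below 0 and a median log2 ratio of -0.17. Of 7 checkpoint and costimulation genes none was past the fold, with 4 below 0 and a median of -0.06. Both counts are near the shares over all genes. Interferon response genes had 4 of 21 downward (*Zbp1*, *Nlrc5*, *Irf1* and *Ifi27l2a*) and none upward. In that list 17 genes were below 0, with a median of -0.39. Effector cytokine genes had 4 of 14 downward (*Il17f*, *Xcl1*, *Cxcl10* and *Lta*) and none upward. *Xcl1* had a log2 ratio of -1.54 (-1.81 to -1.28) and was found in 52 of 154, 25 of 113 and 61 of 213 cells of Neg, AA and AA+Ab.

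The order of the libraries in cell cycle genes depended on the set of cells used. *Mki67*, the proliferation marker, had 76.1, 127 and 163 CPM in Neg, AA and AA+Ab over all members and 38.5, 55.2 and 16.3 in the low-depth members, and 304 of its 374 UMIs lay in sub-clusters 1 and 6. *Top2a*, the topoisomerase of dividing cells, had 69.7, 164 and 211 CPM over all members, and 367 of 452 UMIs lay there. The cell cycle list had a median log2 ratio of AA+Ab to AA of 0.61 with 2 of 16 genes upward over all members, and of -0.17 with 2 of 11 downward in the low-depth members. No order of the libraries in proliferation can be read from the sum over all members.

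**Figure D5:**
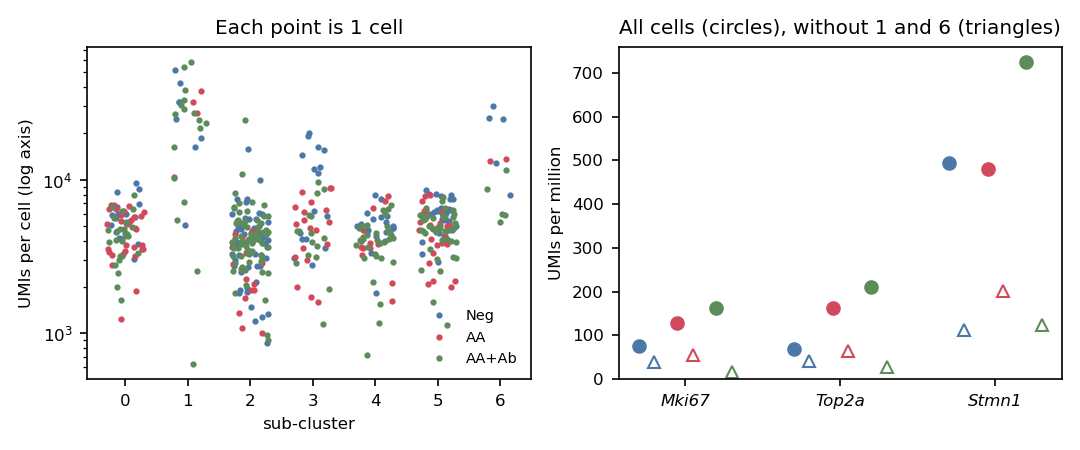
Left, UMIs per cell (y axis, log scale) of each member by sub-cluster (x axis), where sub-clusters 1 and 6 stand above the rest with medians of 26870 and 12266. Right, CPM (y axis, from 0) of 3 cell cycle genes by library for all members (circles) and without sub-clusters 1 and 6 (triangles), where Mki67 in AA+Ab is 163 and 16.3.

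*Ripk1* had 36, 39 and 77 UMIs in gamma-delta T cells of Neg, AA and AA+Ab, that is 32.6, 64.4 and 59.0 CPM, found in 33, 28 and 55 cells. Its log2 ratio of AA to Neg was 0.98 (0.29 to 1.68), just inside the 2-fold limit, and that of AA+Ab to AA was -0.13 (-0.70 to 0.47). Keratinocytes had 29.4, 47.2 and 50.2 CPM, in the order of Neg lowest as well. *Ripk3* had 3, 1 and 4 UMIs, and *Mlkl*, the executioner of necroptosis, had 0 in every library, which allows up to 3 UMIs in the 605453 of AA.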

How the data were processed

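Whole dorsal skin cells of 3 libraries were sequenced by a droplet 3′ method. The deposited values are raw UMI counts for each gene in each barcode, which the authors obtained with Cell Ranger 7.2.0 on mm10. These tools are named in the submitters' processing notes, beside FastQC 0.11.7. The release of the gene annotation was not given in the sources used here.

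Member cells and gene lists were chosen with earlier results of these data known. A few genes of the lists are not reported here and are left out of their counts. The counts of each cell type were added up per library and scaled to 1000000 UMIs. Ratios between libraries carry exact conditional 95% intervals, sums Poisson and shares Clopper-Pearson intervals, all for counting error only. Cell types were compared with edgeR 4.0.16 in R 4.3.3 (filterByExpr, TMM, library as block, Benjamini-Hochberg at 0.05) over 3 libraries, whose p-values measure only the spread between these pools. DESeq2 1.42.0 was an alternative. Sub-clusters (scanpy 1.11.5, igraph 0.11.9, Python 3.11.15) used 1000 variable genes, 10 components, 15 neighbours and a resolution of 0.5.

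Doublets were scored per library against 2 simulated doublets per cell in 20 components and called at 0.8% per 1000 barcodes. They were kept in the main values, where 8, 3 and 13 members of Neg, AA and AA+Ab were called, and removed as an alternative. Named genes were members of the role lists, the 8 largest and 8 smallest ratios between libraries among genes with at least 20 UMIs over both and 3 in each, and the 10 largest and 10 smallest fold changes between cell types among called genes with 1 direction in all libraries, of which a selection is described. The steps were tested on simulated data with known fold changes.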

Additional observations from a re-analysis of the deposited data

How the results depend on the processing

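The 439 low-depth members and the members without other cell type UMIs were sets chosen after seeing the data. No paired analysis was possible because each group is 1 library and the labels carry no replicate number. Depth limits rare transcripts most: AA holds 605453 member UMIs, so a gene under 5 CPM rests on 3 UMIs or fewer.

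Leaving out members with a *Trac*, *Trbc1* or *Trbc2* UMI, which leaves 21, 14 and 26 cells, took the shares in Neg, AA and AA+Ab to 0.319%, 0.134% and 0.264%, with AA still lowest. A keratin limit of 2% gave 2.77% in Neg, and leaving out members with 5 UMIs of another cell type's markers gave 1.98% in Neg. Thinning to 1000 UMIs gave shares with an interleukin 17 cell UMI of 3.92% in Neg and 4.31% in AA+Ab, *Tcrg-V5* shares of 4.58%, 7.08% and 4.79%, and *Trdv4* shares of 27.5%, 21.2% and 23.9% in Neg, AA and AA+Ab.

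Counts of genes past the fold, higher and lower, were 296 and 326 for AA against Neg and 179 and 133 for AA+Ab against AA without alpha or beta chain UMIs. With at least 50 UMIs they were 66 and 122 for AA against Neg, 190 and 114 for AA+Ab against AA, and 98 and 95 for AA+Ab against Neg, where fewer genes are compared. Thinned, they were 116 and 91, 160 and 125, and 128 and 99 in the same order. Without cells holding other markers, the lower count was 298 for AA against Neg and 155 for AA+Ab against Neg, and a keratin limit of 2% gave 524 lower for AA+Ab against Neg. Without the 2 high-UMI sub-clusters the counts were 200 and 415, 456 and 263, and 221 and 280.

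Log2 ratios of AA to Neg that changed sign were *Il20ra* at -0.77 and *Adgrv1* at -0.77 with a *Trdc* minimum of 2 UMIs, *Il20ra* at -0.79 with a keratin limit of 0.5%, and the stress list sum at -0.15 with a limit of 2%. Without alpha or beta chain UMIs, *Nr4a1* was at -1.55, *Tnf* at -1.22, *Top2a* at -1.01, the cell cycle sum at -1.32 and the stress sum at -0.15. Without cells holding other markers, *H2-Aa* was at 0.17 and *H2-Ab1* at 0.91, and thinned, *Il13* was at -0.79.

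For AA+Ab against AA, a *Trdc* minimum of 2 gave *Sema3d* 0.41 and *Il20ra* 1.99, a keratin limit of 0.5% gave *Sema3d* 0.51, *Krt79* 2.25 and *Il20ra* 1.73, and removing doublets gave *Krt79* 2.34, *Top2a* -1.22, *Stmn1* -0.30 and the cell cycle sum -0.18. Without alpha or beta chain UMIs, *Mylpf* was at -0.47, *Myl1* -1.05, *Tnnt3* -1.47, *Tnni2* -2.64, *Acta1* -1.05, *Nr4a2* 0.22, *Xcl1* 0.53, *Klf2* -1.05, *Cxcr6* 0.027, *Stmn1* -0.051 and the cell cycle sum -0.47. Without the high-UMI sub-clusters, *Sema3d* was at 0.13, *Il20ra* 0.13, *Top2a* -1.25, *Stmn1* -0.71 and the cell cycle sum -0.14. Without cells holding other markers, *Mylpf* was at -0.97, *Myl1* -1.18, *Tnnt3* -0.41, *Tnni2* -1.12, *Ckm* -0.047, *Acta1* -0.91 and *Stmn1* -0.067. Thinned, *Tnfrsf9* was at 0.030.

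For AA+Ab against Neg without alpha or beta chain UMIs, *Tnf* was at -1.27, *Mki67* -2.61, *Stmn1* -1.97 and the cell cycle sum -1.80. Without the high-UMI sub-clusters, *Aspm* was at -0.56, *Mki67* -1.24, *Top2a* -0.62 and the stress sum 0.11. Without cells holding other markers, *Cd74* was at 0.13, *Cryab* -0.94, *Pgam2* -0.36 and the stress sum 0.064, and thinned, *Pdlim3* was at -0.45, *Klrb1f* -0.23 and the stress sum 0.11. The cause of these reversals was not tested beyond the cells each setting removes.

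Against alpha-beta T cells, leaving out a library gave 437 to 918 higher and 196 to 711 lower genes, the lowest of both without AA+Ab. The lower count was 958 with no filter on low counts, 985 with doublets removed and 772 without cells holding other markers. DESeq2 with its size factors called 716 higher and 369 lower. Against *Cd8b1* T cells, leaving out a library gave 304 to 702 higher and 248 to 802 lower genes, and DESeq2 called 426 and 334. Among single genes in these tests, *Cdk1* against *Cd8b1* T cells changed sign, to -0.042 without cells holding other markers, 230 values lost their call, and 1859 kept both direction and side of the threshold.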
